A study of Mus musculus with 19 samples.

Results

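The branched-chain amino acids leucine, isoleucine and valine are broken down in muscle by a mitochondrial pathway, and 10 genes of that pathway were followed here in quadriceps RNA of mice with spinal and bulbar muscular atrophy (SBMA). They were found as the array probes named for Bcat1, Bcat2, Bckdha, Bckdhb, Bckdk, Dbt, Ivd, Pcca, Pccb and Mut, which are 10 of 30214 gene names and gave 12 probes of 39429 on the array, 3 of them for Bcat1 and 1 for each other gene. All 12 passed the filter on dim probes, as did 32026 of all probes. SBMA is a disease of an expanded polyglutamine tract. AR113Q mice carry the expanded tract as a knock-in at the gene's own locus, so it is not limited to muscle, and the controls (CTR) were wild type. All mice were C57Bl6J males of 180 days of age. From 40 days of age, mice of each genotype ate either normal chow (NCD) or food high in fat (HFD). Of the 19 arrays, 10 were of AR113Q mice, 5 on each diet (AR113Q-NCD and AR113Q-HFD), and 9 of controls, 5 on NCD and 4 on HFD (CTR-NCD and CTR-HFD). The labels do not say whether each came from 1 mouse, so p-values measure the spread between these samples, which may be technical in part.

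In background, the branched-chain aminotransferases Bcat1 (cytosolic, low in adult muscle) and Bcat2 (mitochondrial) move the amino group off all 3 amino acids. The branched-chain ketoacid dehydrogenase complex then commits the carbon skeletons to oxidation: Bckdha and Bckdhb are the subunits of its first enzyme, Dbt is its core, and the kinase Bckdk switches it off. Past this step the routes part. Ivd, isovaleryl-CoA dehydrogenase, acts on leucine, while isoleucine and valine end in propionyl-CoA, which Pcca and Pccb (the subunits of propionyl-CoA carboxylase) and Mut (methylmalonyl-CoA mutase) feed into the citric acid cycle. Skeletal muscle is known for its large share in the first step.

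The finding for which sequence is shown is the propionyl-CoA carboxylase pair, whose subunits gave unlike values. The Pcca probe A_51_P484254 lies on the plus strand of chromosome 14 in build mm9, with its ends at chr14:123212448-123276023. That span is 63576 bases for a 60-base probe, so the probe crosses a splice junction and reads the spliced transcript. Its sequence, from the scanner files, follows with no letters marked.
Pcca probe: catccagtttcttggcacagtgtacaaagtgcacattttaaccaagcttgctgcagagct
The starts of the 3 genes that carry the results below (Pcca, its partner Pccb, and Ivd) are given from RefSeq in build GRCm38.p6, each from 250 bases before to 50 bases after a transcription start. Capitals mark matches on either strand to AGAACA (or TGTTCT), a half-site bound by steroid receptors, and to GGGCGG (or CCGCCC), the GC box. These motifs do not overlap one another. Pcca has windows at 2 starts in that table, and the one printed, chr14:122534078-122534377 on the plus strand, is the later. Pccb lies at chr9:101034835-101035134 on the minus strand and Ivd at chr2:118861744-118862043 on the plus strand.
Pcca: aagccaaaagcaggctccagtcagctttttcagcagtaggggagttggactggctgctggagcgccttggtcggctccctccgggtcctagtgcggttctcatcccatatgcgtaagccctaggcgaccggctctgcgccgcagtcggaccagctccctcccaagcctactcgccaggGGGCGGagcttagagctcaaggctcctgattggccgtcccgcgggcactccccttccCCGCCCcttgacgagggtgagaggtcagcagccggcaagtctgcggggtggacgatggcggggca
Pccb: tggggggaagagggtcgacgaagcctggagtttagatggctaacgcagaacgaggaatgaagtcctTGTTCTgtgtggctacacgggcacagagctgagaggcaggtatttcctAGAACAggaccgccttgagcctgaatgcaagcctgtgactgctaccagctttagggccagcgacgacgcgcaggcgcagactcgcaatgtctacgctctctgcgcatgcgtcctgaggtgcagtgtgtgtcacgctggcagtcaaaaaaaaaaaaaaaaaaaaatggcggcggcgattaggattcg
Ivd: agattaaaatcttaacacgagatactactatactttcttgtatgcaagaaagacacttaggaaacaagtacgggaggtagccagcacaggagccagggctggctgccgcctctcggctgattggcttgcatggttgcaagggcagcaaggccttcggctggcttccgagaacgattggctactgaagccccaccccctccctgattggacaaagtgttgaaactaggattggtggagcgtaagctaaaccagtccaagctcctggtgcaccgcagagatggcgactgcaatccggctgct
The printed window of Pccb holds 2 AGAACA matches, and those of Pcca and Ivd hold none. AGAACA or its reverse complement stands in 19% of all 32851 windows of this length and in 3 of the 12 windows of the member genes (Bckdk, Bckdhb and Pccb). GGGCGG stands in 35.7% of all windows and in 2 of the 12, and the longer estrogen-related receptor element TCAAGGTCA, found in 0.423% of windows, stands in none of the 12. A match describes the letters in the window and is no evidence of binding.

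Signals are given as log2 of the background-subtracted brightness minus the 75th percentile of the array, so 1 unit is a factor of 2, and signals of different probes cannot be set against each other as levels. The tissue labels held: all 14 probes of 9 skeletal muscle genes were well above background on every array. Arrays of a group correlated at 0.980 to 0.991, and 67.1% to 80.1% of probes were well above background. The 9 genes were Ckm, Acta1, Mylpf, Tnnt3, Tnni2, Ttn, Actn3, Pvalb and Myh4. They include markers of fast fibers such as Tnni2, Pvalb and Myh4, so less muscle and fewer fast fibers cannot be told apart in their mean. The mean of the 14 muscle probes was lower in AR113Q than in CTR on both diets with no overlap. It was at 6.47 to 6.75 against 6.91 to 7.23 on NCD and 6.46 to 6.67 against 7.02 to 7.25 on HFD. Slow-fiber markers (8 probes of 7 genes) spread far more: on NCD their mean ran from 3.77 to 4.96 in AR113Q and from -0.41 to 3.97 in controls, and on HFD from -0.83 to 3.50 and from -2.21 to 4.16. On NCD the log2 75th percentile of the arrays ran from 9.65 to 10.05 in AR113Q and from 9.52 to 9.75 in CTR. On HFD it ran from 9.86 to 10.18 in AR113Q and from 9.51 to 9.86 in CTR. Its part in the lower muscle marker signal was not tested, and saturation of the bright muscle probes was not checked. In whole muscle, fewer cells of a type and less RNA per cell cannot be told apart.

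To ask how the pathway differed between AR113Q and wild-type mice on normal chow, AR113Q-NCD was compared with CTR-NCD. Pcca fell and Ivd rose, and the other 10 probes did not pass the test. A probe was called when its adjusted p, from limma with Benjamini-Hochberg adjustment over all 32026 probes, was under 0.05. By this rule 9.28% of all probes were lower and 8.29% higher, so 1 member probe of 12 in each direction is close to the background. The median log2 fold change was -0.03 over the 12 probes and -0.05 over all probes.

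The Pcca signal was 2.57, 2.53, 2.60, 2.43 and 2.67 in CTR-NCD. In AR113Q-NCD it was 2.07, 2.31, 2.23, 2.03 and 2.11. Every AR113Q array lay below every CTR array, and 15.6% of all probes had groups that did not overlap in either direction. The fold change was 0.753, or -0.41 on the log2 scale (SE 0.073, 95% confidence interval -0.56 to -0.26, adjusted p = 0.00083). It was lower on 5 of 5 slides, by 0.22 to 0.56 on the log2 scale within a slide.

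Pccb, the other subunit of the same enzyme, gave 0.81, 0.66, 0.77, 0.56 and 0.72 in CTR-NCD. In AR113Q-NCD it gave 0.48, 0.86, 0.79, 0.58 and 0.77, and the groups overlapped throughout. Its log2 fold change was -0.01 with an interval of -0.17 to 0.15 (adjusted p = 0.95). Taking Pccb from Pcca on each array removes any factor that scales the whole array. That difference ran from 1.34 to 1.59 in AR113Q-NCD, below the 1.76 to 1.95 of CTR-NCD, again with no overlap, and its mean was lower by 0.40 in AR113Q. It holds the same Pcca values, and a gap of this kind was not particular to this pair. On NCD, Ivd minus Pccb ran from 3.53 to 3.92 in AR113Q and from 3.18 to 3.50 in CTR. Bckdha minus Bckdk (1.75 to 1.96 against 1.42 to 1.58) and Ivd minus Pcca (2.09 to 2.44 against 1.32 to 1.67) were also apart. Bckdhb minus Bckdk and Bckdha minus Bckdhb overlapped. Pairs drawn from all probes were not compared.

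Ivd, the leucine-specific step, gave 4.0, 3.91, 4.27, 3.76 and 4.0 in CTR-NCD. It gave 4.40, 4.67, 4.32, 4.47 and 4.55 in AR113Q-NCD, where the lowest array stood just above the highest control. The fold change was 1.41, or 0.50 on the log2 scale (SE 0.092, interval 0.30 to 0.69, adjusted p = 0.0011), with the AR113Q array higher on 5 of 5 slides by 0.05 to 0.77. The call was lost under another background correction, normexp (0.77, adjusted p = 0.0503, within a range of 0.00028 to 0.0503 over 32 alternatives). It was also lost under a rule that asks for a fold of 1.5 beside the adjusted p.

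**Figure D1:**
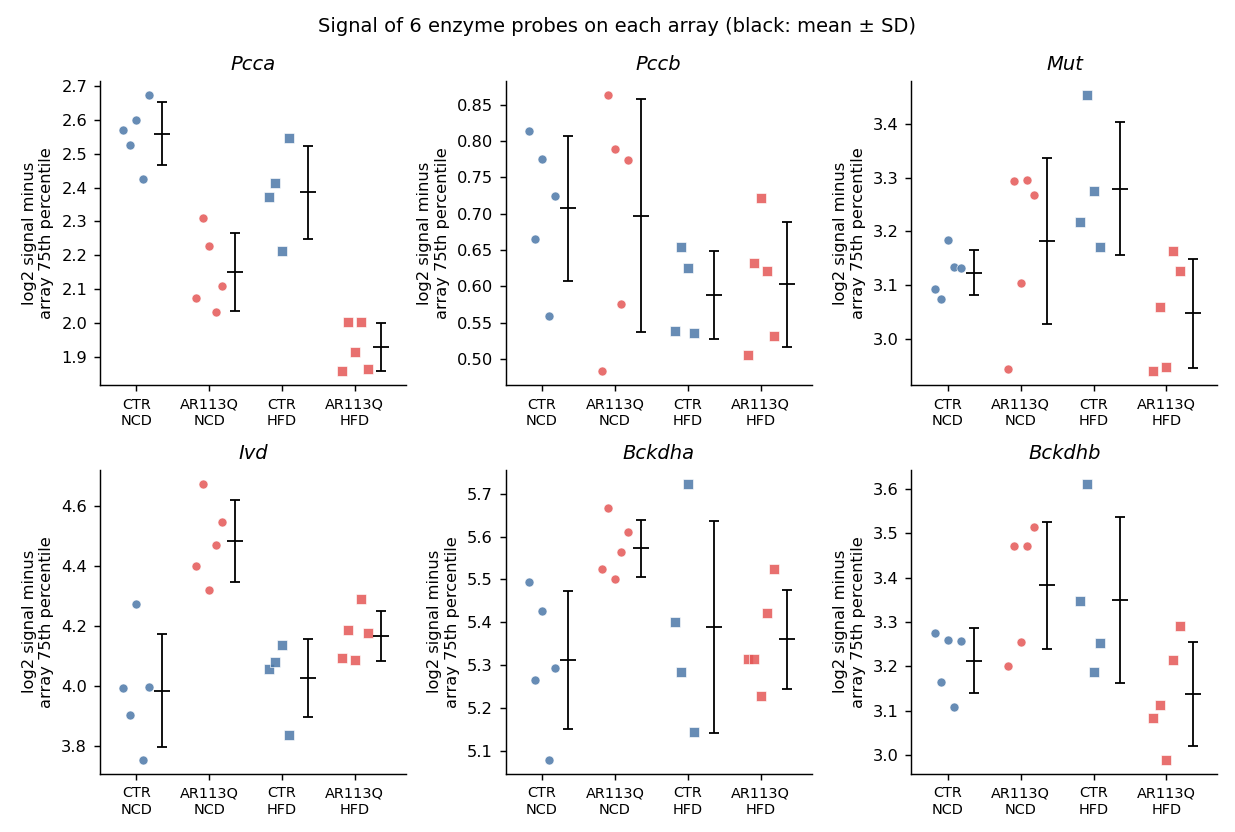
Log2 signal minus the 75th percentile of the array for 6 probes (vertical axes, each panel with its own range) in the 4 groups, with circles for NCD, squares for HFD, blue for CTR and red for AR113Q. Points are single arrays placed by replicate number and black bars give the mean ± SD. Pcca was lower in AR113Q than in CTR on both diets with no overlap, Pccb overlapped, and Ivd stood apart on NCD, at 4.32 to 4.67 against 3.76 to 4.27.

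Among the ketoacid dehydrogenase genes, Bckdha (5.50 to 5.67 in AR113Q-NCD, 5.08 to 5.49 in CTR-NCD) did not overlap between the groups. Its log2 fold change of 0.26 (interval 0.05 to 0.47) had an adjusted p of 0.085. Bckdhb was at 3.20 to 3.51 against 3.11 to 3.28, a log2 fold change of 0.17 (interval -0.02 to 0.36, adjusted p = 0.22). The kinase Bckdk was at 3.61 to 3.77 against 3.61 to 3.98, a log2 fold change of -0.14 (interval -0.30 to 0.02, adjusted p = 0.25), and it was the lower of the pair on 5 of 5 slides. Dbt had a wide interval, -0.93 to 0.61 around -0.16. Neither Mut (log2 fold change 0.06, interval -0.11 to 0.22) nor Bcat2 (-0.05, interval -0.27 to 0.18) passed.

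The 3 Bcat1 probes were dim. A_66_P127969, at chr6:144942376-144942435 in mm9, was measured on all 19 arrays, with a log2 fold change of -0.46 (interval -0.93 to 0.01, adjusted p = 0.19), and it was lower on 5 of 5 slides. With the replicate number as a block, this probe passed at an adjusted p of 0.04, within a range of 0.04 to 0.37 over 32 alternatives. A_55_P2079669 gave -0.32 (adjusted p = 0.56). A_55_P1960157 was well above background on only 6 of 19 arrays and carries little weight.

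The slow-fiber signal moved with the genotype on NCD: 8 of 8 slow-fiber probes had positive log2 fold changes in AR113Q-NCD, none past the test, and the mean was 4.15 ± 0.48 (SD, n = 5) against 1.90 ± 1.66 (n = 5). With that signal as a covariate, Ivd was at 0.43 (adjusted p = 0.008), Pcca at -0.36 (adjusted p = 0.0057) and Bckdha at 0.12 (adjusted p = 0.41). Because the slow-fiber signal moved with the genotype, the parts of fiber type and genotype cannot be told apart by this fit. The lower muscle marker signal of AR113Q moves with the genotype, and its part in the Pcca result was not tested. The Pcca call depended on the scaling. It did not pass after centring arrays on their median (-0.35, adjusted p = 0.14) or under normexp (-0.17, adjusted p = 0.38), within a range of 0.00025 to 0.38 over 32 alternatives. Normexp moved the median of all probes to -0.55 in this comparison, and relative to that median the Pcca value was 0.38 above it.

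On HFD the question is whether the genotypes still differed. Pcca again was lower in AR113Q, and it was the only member probe of 12 that passed. Of all probes, 9.93% were lower and 8.0% higher. The median log2 fold change was -0.22 over the 12 probes, 10 of them negative, and -0.07 over all probes. The negative ones were 8 of 12 with quantile normalization, 9 of 12 with median centring, 10 of 12 with normexp and 7 of 10 with the authors' values. The share of all probes below 0 was not counted here. The members' median rested in part on the scaling and on single arrays. It was -0.08 with quantile normalization, -0.10 with the authors' values and -0.13 with normexp. It was also -0.12 without AR113Q-HFD replicate 5, -0.13 without CTR-HFD replicate 2 and -0.14 without CTR-HFD replicate 1.

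Pcca gave 2.37, 2.41, 2.21 and 2.55 in CTR-HFD. It gave 1.86, 2.0, 1.91, 2.0 and 1.86 in AR113Q-HFD, so that all AR113Q arrays lay below all controls, a lack of overlap that 15.7% of all probes showed. The fold change was 0.728, or -0.46 on the log2 scale (SE 0.077, interval -0.62 to -0.29, adjusted p = 0.0005), and it was lower on 4 of 4 slides with both genotypes, by 0.30 to 0.68. The call was lost under median centring (-0.39, adjusted p = 0.12) and normexp (-0.47, adjusted p = 0.215), within a range of 0.00014 to 0.215 over 32 alternatives. Here the normexp median of all probes was -0.02.

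Pccb gave 0.54, 0.65, 0.63 and 0.54 in CTR-HFD. In AR113Q-HFD it gave 0.51, 0.63, 0.72, 0.62 and 0.53, a log2 fold change of 0.01 (interval -0.16 to 0.18, adjusted p = 0.94). Per array, Pcca minus Pccb ran from 1.19 to 1.38 in AR113Q-HFD, below the 1.59 to 2.01 of CTR-HFD, with a mean lower by 0.47 in AR113Q. It also stayed apart in the table of values that the authors processed, at 1.40 to 1.79 in CTR-HFD against 1.02 to 1.23, and on NCD at 1.60 to 1.75 in CTR against 1.14 to 1.44. After normexp it was apart on HFD (1.36 to 1.80 against 0.98 to 1.23) but overlapped on NCD (1.29 to 1.62 against 1.05 to 1.41). With the main scaling, Ivd minus Pcca was also apart on HFD, at 2.17 to 2.31 in AR113Q against 1.29 to 1.93 in CTR. The other pairs named above overlapped on HFD.

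**Figure D2:**
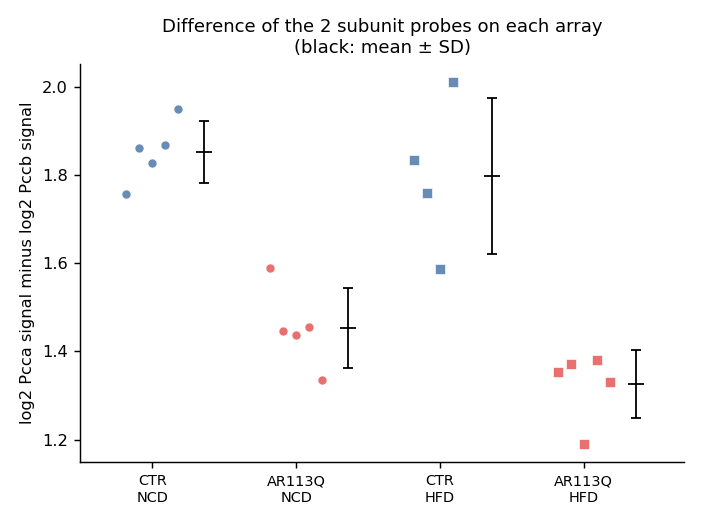
Log2 signal of the Pcca probe minus that of the Pccb probe on the same array (vertical axis) in the 4 groups, with 1 point per array and black bars for the mean ± SD. CTR arrays stood at 1.59 to 2.01 on both diets together and AR113Q arrays at 1.19 to 1.59, with no overlap within a diet.

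Mut, the last step of the propionate route, ran from 2.94 to 3.16 in AR113Q-HFD, below the 3.17 to 3.45 of CTR-HFD. Its log2 fold change of -0.23 (interval -0.41 to -0.06) had an adjusted p of 0.06, and it was lower on 4 of 4 slides. With the slide as a block it was -0.25 and passed (adjusted p = 0.02, within a range of 0.02 to 0.83 over 32 alternatives, of which 6 called it). Bckdhb was at 2.99 to 3.29 against 3.19 to 3.61, a log2 fold change of -0.21 (adjusted p = 0.14). Ivd, called on NCD, was at 4.09 to 4.29 against 3.84 to 4.14 on HFD, a log2 fold change of 0.14 (interval -0.07 to 0.35, adjusted p = 0.39). Bckdha (-0.03), Bckdk (-0.08), Bcat2 (-0.12) and Dbt (-0.41, interval -1.23 to 0.40) did not pass. Bcat1 A_66_P127969 was at -0.49 (adjusted p = 0.18) and passed with the slide as a block (-0.57, adjusted p = 0.025, within a range of 0.025 to 1).

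Markers of mitochondria moved with these values on HFD: 6 of 13 probes of 9 mitochondrial genes were called lower and 12 of 13 were negative, against 9.93% of all probes called lower, and their mean was 3.87 to 4.14 in AR113Q-HFD against 4.17 to 4.39 in CTR-HFD. On NCD it was 4.07 to 4.21 against 4.12 to 4.24, with 4 of 13 lower and 1 higher, against 9.28% and 8.29% of all probes. Their part in the Pcca and Mut values was not tested. Markers of fat cells, leukocytes, endothelium, fibroblasts, Schwann cells and red blood cells overlapped between the genotypes on NCD, with no probe called of the 38 in these lists. On HFD 1 of 5 endothelial probes was called lower.

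**Figure D3:**
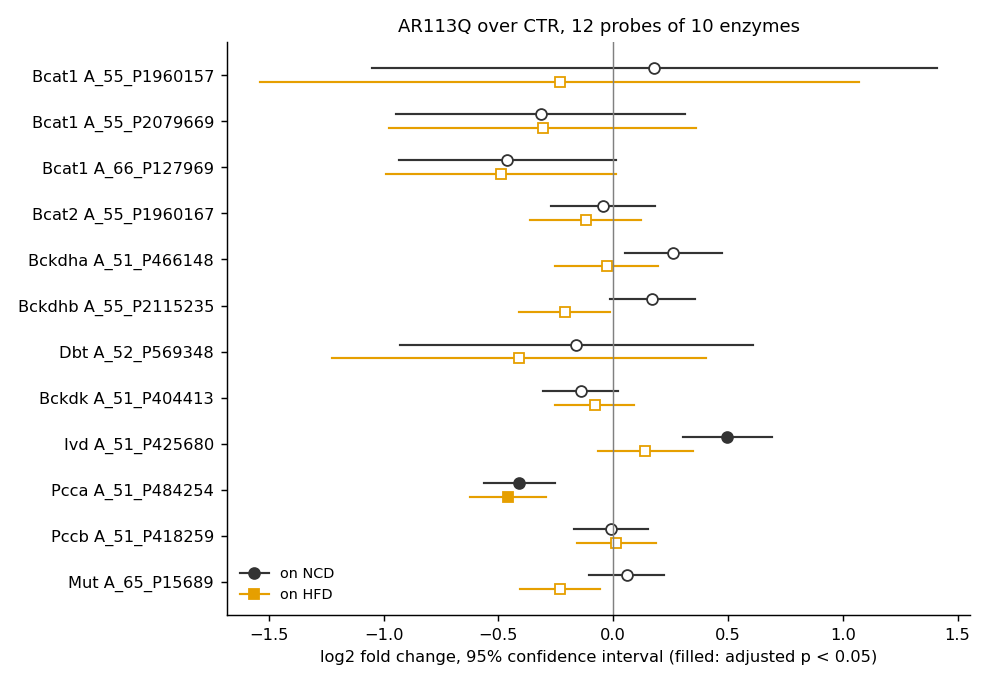
Log2 fold change of AR113Q over CTR (horizontal axis) for the 12 probes of the 10 genes (rows), black circles on NCD and orange squares on HFD, with lines for the 95% confidence interval. Filled symbols passed at an adjusted p under 0.05: Pcca on both diets and Ivd on NCD.

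Averaged over both diets, 3 member probes were called, 1 higher against a background of 13.3% and 2 lower against 16.0%. Pcca was at -0.43 (SE 0.053, adjusted p = 9.4e-06) and Ivd at 0.32 (SE 0.067, adjusted p = 0.0015). Bcat1 A_66_P127969 was at -0.48 (SE 0.16, adjusted p = 0.036), but leaving out 1 array ended that call for 12 of 19 arrays, and it was also lost with the slow-fiber covariate (-0.45, adjusted p = 0.1). The difference between the diets was tested as the interaction of genotype and diet. No member passed, nor did any probe at all (0%), although 4.65% of all probes and 3 of the 12 member probes had an unadjusted p under 0.05. These were Bckdhb at -0.38 (adjusted p = 0.93), Ivd at -0.36 and Mut at -0.29 (both adjusted p = 1.0), each lower in AR113Q relative to CTR on HFD than on NCD. The count of 3 went to 0 under median centring. For Pcca the interaction was -0.05 with an interval of -0.27 to 0.18.

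The diet itself was read within each genotype, in comparisons that share their groups with those above. In AR113Q mice, all 12 member probes were lower on HFD than on NCD, against 50.7% of all probes, with a median of -0.19 against 0.00 over all probes. None passed the adjusted test, which called 8 of 32026 probes (0.0250%). At an unadjusted p under 0.05, 6 of 12 were lower, against 3.51% of all probes.

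Bcat2, the muscle transaminase, gave 2.36, 2.53, 2.37, 2.20 and 2.38 in AR113Q-NCD. On HFD it gave 1.90, 2.04, 2.17, 2.12 and 1.88, all below the NCD arrays, a separation that 2.04% of all probes showed. The log2 fold change was -0.34 (interval -0.57 to -0.11, adjusted p = 0.52). Ivd did not pass either, at 4.09 to 4.29 on HFD against 4.32 to 4.67 on NCD, a log2 fold change of -0.31 (adjusted p = 0.47), also with no overlap. Pcca was at 1.86 to 2.0 on HFD against 2.03 to 2.31 (-0.22, adjusted p = 0.53), the third member without overlap. Bckdhb (-0.24), Bckdha (-0.21) and Bckdk (-0.17) overlapped and completed the 6 with an unadjusted p under 0.05. Each of Bcat2, Ivd, Pcca, Bckdha, Bckdhb and Mut was lower on HFD on 5 of 5 slides.

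How many of the 12 were negative depended on the scaling. It was 12 with the 75th percentile, 10 after quantile normalization and 10 after median centring, while the authors' values, which hold only 10 of these probes, had 10 of 10 negative. With 1 array left out it was 10 to 12. The count of 6 at an unadjusted p under 0.05 went to 1 under median centring and 0 under normexp. Slow-fiber markers were also lower on HFD in AR113Q, with 8 of 8 probes negative and a mean of 1.58 ± 2.10 (SD, n = 5) against 4.15 ± 0.48 (n = 5). With the slow-fiber signal as a covariate 4 of 12 had an unadjusted p under 0.05: Pcca (-0.27), Bcat2 (-0.35), Ivd (-0.24) and Bckdhb (-0.24). All 13 mitochondrial probes were negative as well, with a median of -0.12.

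In CTR mice the members went both ways, 6 negative and 6 positive, with a median of -0.04. None of them and no other probe passed (0%, with 1279 probes lower and 1496 higher at an unadjusted p under 0.05), and 3 of 12 were lower at an unadjusted p under 0.05, against 3.99% of all probes. These were Bcat2 at -0.27 (adjusted p = 0.54), Bckdk at -0.23 (adjusted p = 0.46) and Pcca at -0.17 (adjusted p = 0.56). Bckdk and Pcca were lower on 4 of 4 slides. The count of 3 went to 0 under median centring and with the CTR groups fitted alone. It was 1 without CTR-NCD replicate 1, 3 or 5, without CTR-HFD replicate 2 or 3, and under normexp. After normexp, which moved the median of all probes to -0.64 here, Pcca was at 0.15. Mut (0.16), Bckdhb (0.14), Bckdha (0.08) and Ivd (0.04) had positive values in CTR and negative ones in AR113Q. For Bckdhb, Ivd and Mut that difference is the interaction given above.

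**Figure D4:**
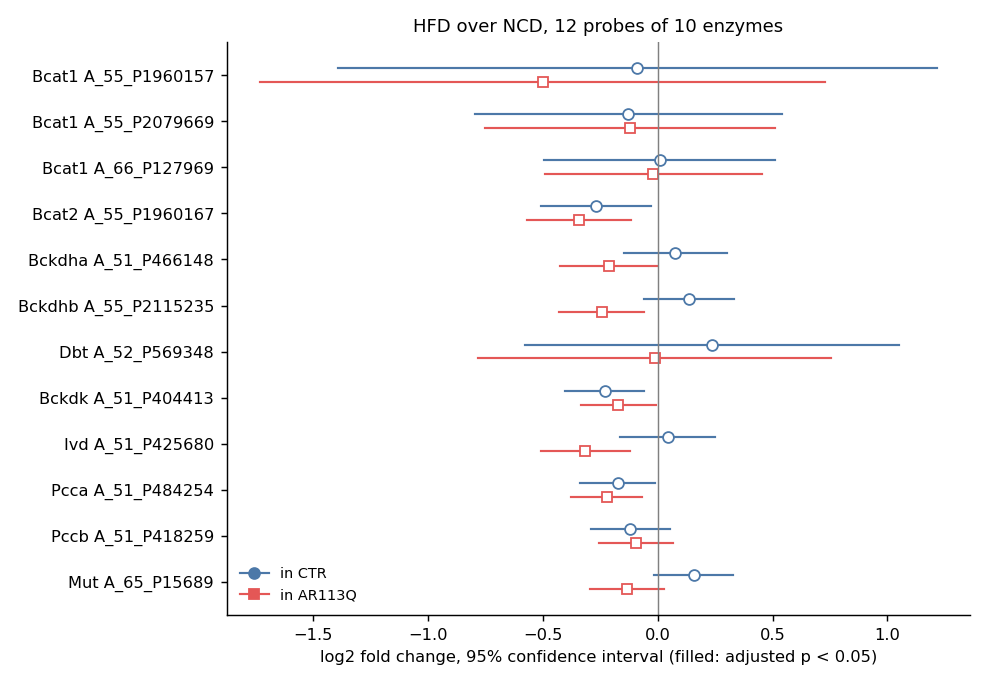
Log2 fold change of HFD over NCD (horizontal axis) for the 12 probes (rows), blue circles in CTR and red squares in AR113Q, with lines for the 95% confidence interval. All symbols are open because no probe passed the adjusted test, and all 12 red symbols lie at or below 0 while 6 of the 12 blue ones lie above it.

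A further 23 genes of branched-chain amino acid breakdown were measured by 36 probes, all past the filter. On NCD 6 probes were called higher and 3 lower, against 8.29% and 9.28% of all probes. The median was 0.09 against -0.05 over all probes, and 25 of 36 were positive. For Mccc1 and Mccc2, the subunits of methylcrotonyl-CoA carboxylase in the leucine route, 1 probe each was called higher (0.22 and 0.42). The called Mccc2 probe was dim, at -3.93 to -3.48 in AR113Q-NCD against -4.35 to -4.01 in CTR-NCD (adjusted p = 0.049). The other Mccc2 probe was at 0.27 (adjusted p = 0.082) and the other Mccc1 probe at 0.00 (adjusted p = 0.99). None of the 4 probes of Auh, the next enzyme of that route, was called (-0.02 to 0.09). The Mccc1 call was kept in 23 of 31 alternatives. For Acadsb, the dehydrogenase of the isoleucine route, 1 of 2 probes was called, at 2.52 to 2.89 in AR113Q-NCD against 2.30 to 2.43 in CTR-NCD, a log2 fold change of 0.29 (adjusted p = 0.013). For Abat, a transaminase that also acts late in valine breakdown, 1 of 2 probes was called, at -1.30 to -0.91 against -2.09 to -1.49, a log2 fold change of 0.60 (adjusted p = 0.00054). Mmab, which prepares the cobalamin cofactor of Mut, was lower on 2 of its 3 probes (-0.37 and -0.25).

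On HFD the counts were 2 higher and 7 lower of 36, against 8.0% and 9.93% of all probes, with a median of -0.13 against -0.07 over all probes and 25 of 36 negative. Besides 1 Ppm1k probe and Oxct1, the lower ones were Mcee (-0.35), which makes the substrate of Mut, and Mmab (-0.24 and -0.36), Mmachc (-0.30) and Mmadhc (-0.23), which handle the cofactor of Mut. The third Mmab probe was at -0.30 (adjusted p = 0.057), and both probes of Mmaa, which also serves that cofactor, had positive values (0.04 and 0.23) and were not called. Mmachc was at 1.30 to 1.62 in AR113Q-HFD against 1.75 to 1.95 in CTR-HFD (adjusted p = 0.0077). Oxct1, which uses ketone bodies, was lower too (-0.49, adjusted p = 0.046). Acadsb was higher (0.26), as on NCD. Of 32 alternatives, 15 called Mcee, 11 Mmadhc and 9 Oxct1 on HFD, and 9 called Mccc2 on NCD. Median centring ended the calls named here for these genes on both diets, apart from Abat on NCD, which kept its call. None of them passed after normexp, where the Mccc2 probe turned to -0.74 and Abat went to 0.00.

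Ppm1k is the phosphatase that switches the ketoacid dehydrogenase complex on, opposite Bckdk, and its probes disagreed. A_51_P265219, at chr6:57456890-57456949 in mm9, was higher in AR113Q by 0.80 on NCD (adjusted p = 0.00026) and 0.49 on HFD (adjusted p = 0.016). A_55_P1968606, at chr6:57458598-57458657 in the same transcript, was lower by 0.22 (adjusted p = 0.024) and 0.42 (adjusted p = 0.00042). The lower calls of the second probe were lost on both diets under quantile normalization, median centring and normexp, and its sign changed under 2 alternatives on NCD and 1 on HFD. This second probe was very bright, with group means of 7.98 to 8.39, and whether it was saturated was not checked. The calls of the first probe were kept in 31 of 32 alternatives on NCD and 28 of 32 on HFD. No direction is given for this gene.

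**Figure D5:**
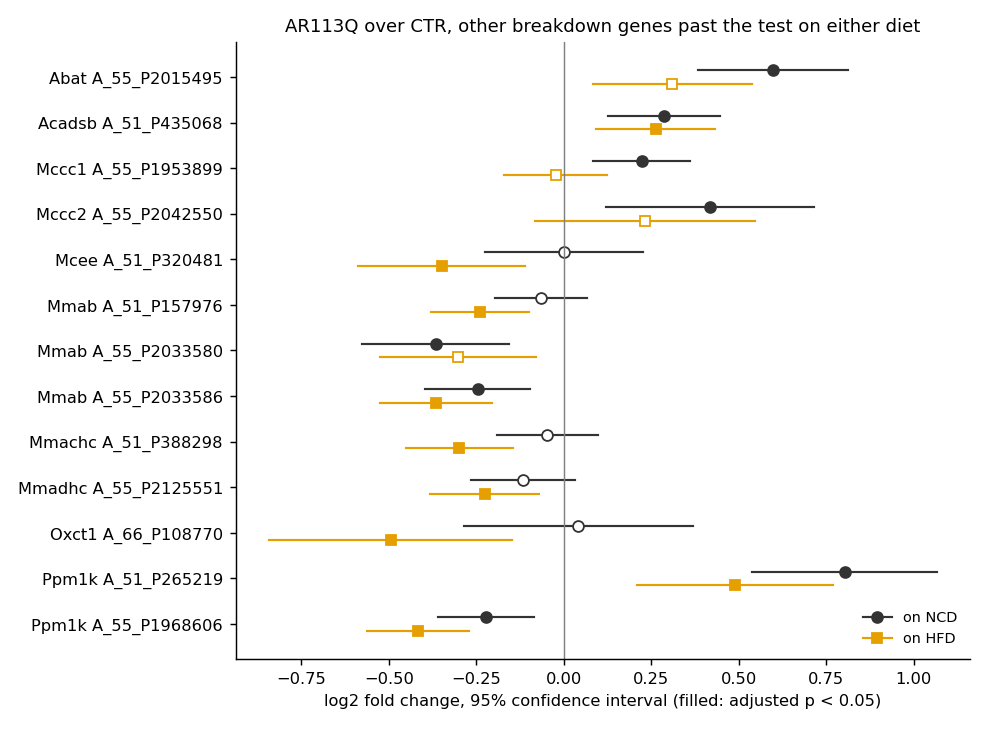
Log2 fold change of AR113Q over CTR (horizontal axis) for 13 probes of 10 other breakdown genes that passed the test on either diet (rows), black circles on NCD and orange squares on HFD, with lines for the 95% confidence interval and filled symbols for an adjusted p under 0.05. Acadsb was higher on both diets, Mmab A_55_P2033586 lower on both, and the Ppm1k probes went opposite ways.

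In AR113Q mice on HFD against NCD, 33 of these 36 probes were negative and none was called, with a median of -0.16. Of all probes, 50.7% were negative. An unadjusted p under 0.05 was seen for 9 of the 36, and 3.51% of all probes were lower at that level. In CTR mice 29 of 36 were positive, with a median of 0.07 against 0.01 over all probes. The interaction was negative for 33 of 36, with a median of -0.20 against -0.01 over all probes, 8 of 36 at an unadjusted p under 0.05 (4.65% of all probes) and none called. These signs were not particular to breakdown genes. The interaction was negative for 12 of 13 mitochondrial, 13 of 14 skeletal muscle and 6 of 12 leukocyte probes. In CTR mice 12 of 13, 12 of 14 and 3 of 12 of them were positive on HFD against NCD. The shares of all probes with these signs were not counted.

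For 7 transporters, 1 of 9 probes was called higher and 1 lower on each diet. That is close to the background of 8.29% and 9.28% of all probes on NCD and 8.0% and 9.93% on HFD. The called probes were of Slc7a5 and its partner Slc3a2, which together carry large neutral amino acids such as leucine into the cell. Slc7a5 probe A_55_P1973941 was at -4.02 to -3.59 in AR113Q-NCD against -5.27 to -4.53 in CTR-NCD, or 1.11 higher on the log2 scale (adjusted p = 0.00083), and on HFD the change was 1.72 (adjusted p = 3.1e-05). It was well above background on 2 of 4 CTR-HFD arrays, and the second Slc7a5 probe, A_55_P2017972, did not follow (-0.07 and -0.33, neither called), so the probes disagree. After normexp the NCD value of A_55_P1973941 turned to -0.67. Slc3a2 was lower by 0.27 and 0.25 on the log2 scale (adjusted p = 0.0068 and 0.015). The Slc3a2 calls were lost on both diets under median centring and normexp, where the NCD value was -0.04, and on HFD also under quantile normalization, with the groups fitted alone and without CTR-HFD replicate 1. For 5 transcription regulators tied to this pathway or to oxidative muscle, 2 of 8 probes were called higher and 1 lower on NCD. On HFD 0 were called higher and 1 lower, and the shares of all probes are those just given. Tbx15, a factor of fast fibers, was lower by 0.71 on NCD (adjusted p = 0.0015) and 0.53 on HFD (adjusted p = 0.016). The NCD call was lost under normexp, and the HFD call under normexp, under median centring, with the groups fitted alone and without CTR-HFD replicate 2. Ppara, the fatty acid-sensing receptor, was higher on NCD on 2 of 3 probes (1.15 and 1.07, adjusted p = 0.043 and 0.04998), which 13 of 32 and 11 of 31 alternatives called. Klf15, Ppargc1a and Esrra did not pass on either diet. The 2 Ppargc1a probes were at 0.21 and 0.34 on NCD and 0.57 and 0.72 on HFD (adjusted p from 0.11 to 0.66). Esrra was at 0.24 on NCD and 0.07 on HFD. The Klf15 probe, at 0.21 and -0.17, was dim, with group means of -5.40 to -5.06.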

How the data were processed

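Total RNA of quadriceps was labelled with Cy3 and hybridised to 1-colour Agilent mouse arrays (19 arrays on 5 slides). The deposited spot intensity values were made by the authors with Feature Extraction 10.7.3.1, which subtracts background but does not normalize between arrays. The authors also deposited a table of log2 values (25944 probes, 10 of the 12 member probes), whose normalization is not given in the sources used here. Groups and replicate numbers follow the sample labels.

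Each processed intensity was put on a log2 scale. Control spots and 2124 values marked as outliers were dropped, replicate spots were averaged to 1 value per probe (43020 spots gave 39429 probes), and every array was scaled by its own 75th percentile. A probe counted as detected on an array where 0.5 or more of its spots were well above background, and probes detected on 4 or more of the 19 arrays were tested. All 4 groups entered 1 limma model (version 3.58.1 in R 4.3.3, with eBayes), and p-values were adjusted by Benjamini-Hochberg over 32026 probes with a threshold of 0.05. The number of arrays limits the precision. Marker lists were scored by the mean of their probes. All member genes and every probe of them are given. Other pathway genes are named where they passed the test, except for results that are not reported here. The members and lists were chosen with earlier results of these data known, so they are not independent of them.

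Alternatives were quantile normalization, median centring, normexp (offset 50), the authors' values, 2 other filters, outlier spots kept, slide and replicate blocks, array weights, another variance estimate, the groups of a comparison alone, averaged probes, a fold threshold (1.5 or 0.6) and each array left out. The slow-fiber covariate was added after seeing the data. A slide held the arrays of 1 replicate number, except that CTR-HFD replicate 4 was on slide 5. Replicates of the same number deviated together on NCD (r 0.24 to 0.45 in 5 pairs of AR113Q and CTR) but not in every pair on HFD (-0.20 to 0.43 in 4 pairs). The fit was also run on simulated data with independent noise on each array and changes placed in probes of low spread. Deviations shared by arrays of a slide were not part of that simulation. Promoter windows are from RefSeq GRCm38.p6 (8 of 10 genes) and probe positions, in mm9, from the scanner files. Plots came from Python 3.11.15 and matplotlib 3.10.9.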

Additional observations from a re-analysis of the deposited data

Results flagged for a closer look

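The lowest and highest array of each group was compared with its neighbours for the 12 member probes, and 2 of 48 groups held an array far from the others, where chance gives about 1 in 20. Both were dim Bcat1 probes. A_55_P1960157 was at -8.58 in CTR-NCD replicate 5, against -6.17 for the median of that group, and A_55_P2079669 was at -5.34 in CTR-HFD replicate 4, against a highest array of -3.74. Neither probe was called in any comparison above.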

How the results depend on the processing

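The counts of called member probes (2 on NCD, 1 on HFD, 3 averaged over the diets) moved as follows. On NCD the count was 3 with quantile normalization and with the slide or the replicate as a block, 1 with median centring, 0 with normexp, 4 with the authors' values (Bckdha, Bckdhb, Ivd and Pcca, 10 probes tested) and 0 with a fold threshold (1.5 up or 0.6 down). On HFD it was 0 with median centring, normexp or the fold threshold, 2 with the filter on all 19 arrays, with the replicate block and with the trended robust variance (Mut and Pcca), and 3 with the slide as a block. Averaged over the diets it was 4 with quantile normalization and the authors' values, 2 with the slow-fiber covariate, and 0 with normexp or the fold threshold. Leaving out 1 array gave 2 to 3 on NCD, 1 to 2 on HFD, 2 to 4 averaged, and 0 to 0 for both diet comparisons and the interaction. Pcca and Ivd kept their averaged calls for each array left out. Single probes passed on NCD for Bckdha without CTR-HFD replicate 3 (0.26, adjusted p = 0.034, within 0.016 to 0.41), and on HFD for Dbt without AR113Q-HFD replicate 3 (-0.84, adjusted p = 0.03, within 0.03 to 1) and for Mut without AR113Q-NCD replicate 1 or AR113Q-HFD replicate 4. With the slide as a block Pcca was at -0.41 on NCD and -0.44 on HFD and Ivd at 0.50 on NCD, all past the threshold, and with the replicate block Pcca was at -0.41 and -0.46. Apart from Bcat1 A_66_P127969 on NCD and Mut on HFD, no call of a member changed with the replicate block. Over 380 values on each diet, no called probe changed sign, while uncalled values changed sign in 15 cases on NCD and 13 on HFD. Dim probes (Dbt and Bcat1) limit what can be read, and the causes of these shifts were not tested.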
